A study of Mus musculus with 2 samples.

Results

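Endothelial and endocardial identity genes are the genes by which the inner lining of blood vessels, heart chambers and lymphatic vessels is commonly recognised. They were taken by symbol as known markers of these cells, and 34 genes were found by identifier among the 43346 genes of the deposited tables. Of these, 28 were classed as vascular, 4 as endocardial and 2 as lymphatic. The RNA came from whole hearts of healthy mice of the strain B6NTac;B6NCrl/Lap on postnatal day 0, males and females pooled. There was 1 group, newborn heart, with 2 biological replicates from independent tissue isolates that shared a donor label. Replicate 1 was a pool of 15 mice, and replicate 2 a pool of unstated size. With 1 group no difference between conditions exists to be tested, so levels are given per replicate or as mean ± SD with n = 2, and differences between the replicates carry no p-value.

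Endothelial cells seal vessels through cadherin and claudin junctions, sense flow and growth factors through surface receptors, and release clotting and matrix proteins into blood and basement membrane. Their identity is maintained by ETS factors together with SoxF factors, a small family of Sox proteins shared by arteries, veins and lymphatics. The endocardium is the endothelium of the heart chambers, from which valve tissue and some coronary vessels arise, and Prox1 is the factor that sets the lymphatic fate.

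Total RNA longer than 200 nt was depleted of ribosomal RNA and sequenced as strand-specific read pairs. Expected counts, the number of fragments assigned to a gene by a likelihood model, summed to 71186117 in replicate 1 and 75105452 in replicate 2. Values below are TPM, in which each count is corrected for the length of its transcripts and set relative to the whole library, so that genes can be compared per length. Since mitochondrial and noncoding RNAs were included, nuclear protein-coding genes held 26.3% of TPM in replicate 1 and 26.5% in replicate 2. The heart label was matched by cardiomyocyte genes, with Myh6 at 1349 and 1432 TPM and Actc1 and Myl3 above it. Replicates differed in genes of other tissues and cell types, however. Summed urothelial marker TPM was 5.41 and 82.8 in replicates 1 and 2, summed smooth muscle and pericyte marker TPM was 370 and 721, and thymocyte and lymphocyte markers summed to 8.58 and 0.57. Cd3e was listed at 0 in both libraries. What part these tissues and cell types had in the differences described below was not tested. In such bulk RNA, fewer cells of a type and less RNA per cell cannot be told apart.

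The endothelial genes were broadly and moderately expressed in newborn heart. Of the 34 genes, 33 reached 1 TPM in both replicates, and the exception was Bmx, at 2.02 and 0.48. Together they made up 657 and 651 TPM, or 654 ± 4.45, which was 0.25% and 0.245% of protein-coding nuclear TPM. Their median mean level was 13.7 TPM, against 6.49 for the 11594 genes with a mean of at least 1 TPM. Among 21461 nuclear protein-coding genes they stood between percentile 50.8 and percentile 98.2, with a median of 85.9. Counts behind each gene ran from 143 to 14477 per library. A 2-fold or larger difference in TPM between the replicates was found for 3 of the 34 genes, Ecscr and Sox18 higher and Bmx lower in replicate 2. Over all 11594 genes tested, 19.0% differed by as much, 10.1% higher and 8.90% lower.

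Egfl7 stood alone at the head of the order. Cd34, S1pr1, Pecam1, Eng, Cdh5, Tie1 and Esam followed between 30.5 and 47.2 TPM, and Tal1 and Bmx came last. For 9 of the 33 neighbouring pairs in this order, both replicates of the higher gene exceeded both of the lower: Egfl7 over Cd34, S1pr1 over Pecam1, Cdh5 over Tie1, Esam over Cldn5, Adgrf5 over Sox17, Sox17 over Clec14a, Sox7 over Ptprb, Tmem100 over Tal1, and Tal1 over Bmx. Elsewhere neighbouring genes did not differ beyond their spread.

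**Figure D1:**
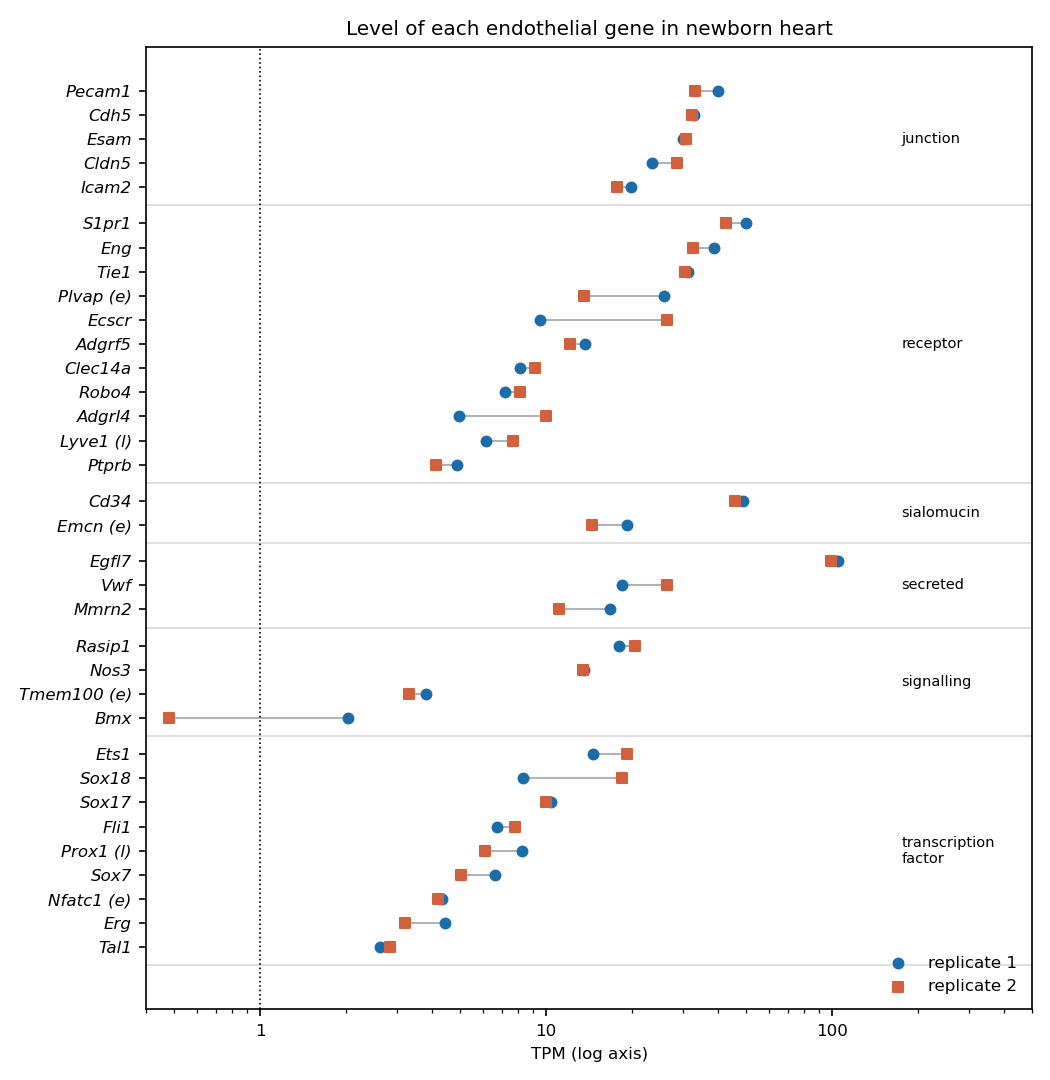
TPM of each of the 34 endothelial genes on a log axis, with a circle for replicate 1 and a square for replicate 2, grouped by role; (e) marks endocardial and (l) lymphatic genes, and the dotted line is the detection limit of 1 TPM. Egfl7 lies farthest right near 100 TPM, and Bmx in replicate 2 is the one point left of the limit.

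The 5 junction genes had sums of 146 and 143 TPM. Cdh5 encodes VE-cadherin, the adherens junction cadherin of endothelium, and was at 32.8 and 32.5 TPM. Esam, an immunoglobulin-family adhesion molecule, was at 30.1 and 30.9. Cldn5, the claudin of endothelial tight junctions, was at 23.4 and 28.6. Cdh5 and Esam thus varied by under 1 TPM, and Cldn5 lay below both in each library. Icam2, which binds leukocyte integrins, was at 19.9 and 17.7 TPM. Pecam1, an adhesion molecule of endothelial junctions that leukocytes and platelets also carry, was at 39.9 and 33.3 TPM, the highest of the group in both libraries.

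Pecam1 (ENSMUSG00000020717.15, chromosome 11, 106654217 to 106750628, minus strand, GRCm38) differed more in its transcripts than in its level. Pecam1-203 made up 68.9% of the gene's TPM in replicate 1 and 47.3% in replicate 2, and Pecam1-204 made up 10.6% and 30.3%. The transcripts differ in a pair of small coding exons of the cytoplasmic tail, printed here from GENCODE M21 in coding orientation because their use differed between the replicates.
Pecam1 exon 14 of 16, chr11:106671742-106671798, minus strand, 57 nt: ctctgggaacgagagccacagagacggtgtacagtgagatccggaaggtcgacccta
Pecam1 exon 15 of 16, chr11:106662002-106662024, minus strand, 23 nt: atctcatggaaaacagatactct
Exon 14 codes for a stretch with an inhibitory tyrosine motif, through which Pecam1 recruits phosphatases. Transcripts holding it amounted to 12.3 of 39.8 TPM in replicate 1 and 17.4 of 33.1 TPM in replicate 2, an inclusion of 30.9% and 52.4%. Exon 15 is 23 nt long, not a multiple of 3, so its inclusion changes the reading frame at the protein's end. Its inclusion was 10.8% in replicate 1 and 33.3% in replicate 2. Both exons were thus used more in replicate 2 by these estimates, which the quantification model makes from reads that transcripts largely share.

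The 11 surface receptors and other membrane proteins had sums of 200.4 and 197 TPM, while single genes of the group moved in both directions. S1pr1, the sphingosine-1-phosphate receptor that stabilises vessels, led them with 50.1 and 42.5 TPM. Eng, endoglin, a co-receptor for BMP ligands, had 38.6 and 32.6. Tie1, a receptor kinase that modulates angiopoietin signals, had 31.3 and 30.6. Compared as counts, 10863 and 11390, Tie1 differed by less than counting error. S1pr1 and Eng were both lower in replicate 2, by log2 differences of -0.26 and -0.27.

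Lower levels were found for the receptors of guidance, adhesion and lectin families. Adgrf5, an adhesion G protein-coupled receptor, was at 13.7 and 12.1 TPM. Clec14a, a C-type lectin receptor, was at 8.09 and 9.14. Robo4, a guidance receptor of endothelium, was at 7.17 and 8.12. These 3 genes stayed within 1.25-fold between replicates. Ptprb, the phosphatase VE-PTP that acts on Tie2 and VE-cadherin, was at 4.88 and 4.12 TPM. Its long transcript drew 5987 and 5304 counts, so this low TPM was still deeply counted.

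Ecscr, a cell surface regulator of endothelial migration, was the gene with the largest increase from replicate 1 to replicate 2. Its 770 and 2239 counts gave 9.52 and 26.4 TPM, a 2.71-fold difference after centring. All of its TPM was assigned to a single transcript, Ecscr-204, in both libraries. A predicted gene on the opposite strand, 1700066B19Rik, had 0 and 24 counts, far fewer than Ecscr. Adgrl4, another adhesion receptor, came next among the receptors, with 4.96 and 9.99 TPM from 1998 and 2668 counts. By counts the log2 difference of Adgrl4 was smaller, 0.34 against 0.97 by TPM. Adgrl4-202, a noncoding model of 625 nt, took 40.4% of the gene's TPM in replicate 2 from 151 counts, and none in replicate 1.

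The sialomucins are heavily glycosylated surface proteins that govern leukocyte contact. Cd34, shared with blood progenitors and some stromal cells, was at 48.7 and 45.7 TPM. Its full-length form Cd34-201 took 50.2% and 59.97% of TPM, and Cd34-202, with a shorter coding region of 975 nt against 1146, took 47.6% and 37.6%. Both Cd34 forms were therefore made in comparable amounts in each library. Emcn, endomucin, a marker of veins, capillaries and endocardium, was at 19.1 and 14.5 TPM.

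Emcn (ENSMUSG00000054690.13, chromosome 3, 137341067 to 137432185, plus strand) had a different leading transcript in each replicate. Emcn-201 took 65.9% of its TPM in replicate 1 and 15.0% in replicate 2, and Emcn-202 took 31.3% and 75.4%. Emcn-202 has a longer annotated model, 2588 nt against 1357, and holds an additional coding exon, shown here since it separates the forms.
Emcn exon 5 of 12 in Emcn-202, chr3:137403984-137404022, plus strand, 39 nt: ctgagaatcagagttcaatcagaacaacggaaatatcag
The exon keeps the reading frame. Its inclusion was 34.1% in replicate 1 and 85.0% in replicate 2. Since the effective length of Emcn went from 1514 to 2205 nt with this shift, Emcn was lower in replicate 2 by TPM, with a log2 difference of -0.42, but higher by counts, with 0.14 (3054 and 3537 counts). As the forms also differ in their 3' ends, use of the exon and of the end cannot be told apart here.

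Among the secreted and matrix proteins, Egfl7 was the most abundant of all 34 genes. It encodes a matrix-bound factor of vessel walls and hosts the endothelial microRNA miR-126 in an intron. Egfl7 (ENSMUSG00000026921.14, chromosome 2, 26580014 to 26593120, plus strand) was at 104 and 99.2 TPM, with 8090 and 9030 counts, a mean of 102 ± 3.73. The gene for the microRNA itself, Mir126a, had 0 counts, and RNA of its mature size was outside the size range sequenced. Reads were spread over 13 of 19 Egfl7 transcripts, and the leading one, Egfl7-202, took 24.5% and 28.3%. Transcripts starting within 100 nt of the RefSeq start site at position 26583865 took 43.0% and 52.9% of Egfl7 TPM, and those near the site at 26586636 took 11.98% and 2.14%. The 250 bases before the more used start site are printed below from RefSeq (GRCm38.p6), with an AGGAAG, the core of many ETS binding sites, in capitals.
Egfl7 upstream, chr2:26583615-26583864, plus strand: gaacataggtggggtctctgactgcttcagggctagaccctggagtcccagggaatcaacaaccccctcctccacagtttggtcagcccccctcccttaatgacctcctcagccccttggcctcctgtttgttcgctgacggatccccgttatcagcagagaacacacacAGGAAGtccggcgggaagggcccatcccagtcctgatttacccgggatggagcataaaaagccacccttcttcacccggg

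Mmrn2, multimerin 2, a matrix ligand of Clec14a, was at 16.7 and 11.1 TPM, and its counts were 6431 and 4496. Vwf encodes von Willebrand factor, the platelet-tethering protein stored in endothelial granules and in platelets. It was at 18.4 and 26.4 TPM, while its counts were 10947 and 10358. Vwf was thus higher in replicate 2 by TPM, with a log2 difference of 0.50, and slightly lower by counts, with -0.16. Vwf-209, a noncoding model of 456 nt, held 31.9% of Vwf TPM in replicate 2 from 157 counts, and none in replicate 1. The 7 platelet and megakaryocyte markers summed to 15.3 and 31.1 TPM, of which Pf4 made up 11.8 and 27.3. Of the others, Itga2b was at 1.11 and 1.28 and Ppbp at 0.77 and 1.27 TPM, and Gp9 and Gp1ba stayed at or under 0.07 TPM in both. Whether platelet RNA contributed to Vwf or Pecam1 was not tested.

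Sums over the 4 signalling genes were 37.3 and 37.8 TPM. Nos3, the endothelial nitric oxide synthase, was at 13.6 and 13.5 TPM, the smallest SD of all 34 genes at 0.0919. Rasip1, a Rap1 effector needed for lumen formation, was at 17.9 and 20.5. Tmem100, a membrane protein induced by BMP signals, was at 3.79 and 3.32. Only Bmx in this group differed by 2-fold or more.

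Bmx (ENSMUSG00000031377.7, chromosome X, 164192842 to 164258193, minus strand) encodes a Tec-family kinase of arterial endothelium and endocardium. It had 479 counts in replicate 1 and 143 in replicate 2, or 2.02 and 0.48 TPM, so replicate 2 had 0.269 times the level of replicate 1 after centring. The transcript Bmx-201 took 81.8% of TPM in replicate 1 and 0% in replicate 2, while Bmx-202 took 18.2% and 100%. Bmx-202 alone was similar in amount, with 105 and 143 counts or 0.37 and 0.48 TPM. By these model estimates the difference lay in Bmx-201, which was assigned 374 counts in replicate 1 and 0 in replicate 2. How well the reads tell the 2 forms apart was not tested. Bmx-202 starts at the RefSeq start site at 164258193, and the bases before it are printed because reads were assigned to Bmx-202 in both libraries. None of the motifs searched was found in them.
Bmx upstream, chrX:164258194-164258443, minus strand: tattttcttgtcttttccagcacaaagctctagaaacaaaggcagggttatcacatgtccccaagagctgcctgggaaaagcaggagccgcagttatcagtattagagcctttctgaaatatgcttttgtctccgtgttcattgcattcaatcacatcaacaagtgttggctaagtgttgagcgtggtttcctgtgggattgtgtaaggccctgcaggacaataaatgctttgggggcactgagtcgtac

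All 9 transcription factor genes were detected, with sums of 66.3 and 76.7 TPM. Ets1 led the ETS factors with 14.6 and 19.2 TPM. Fli1, also active in megakaryocytes, was at 6.73 and 7.80. Erg, the ETS factor most restricted to endothelium, was at 4.42 and 3.21. The order Ets1, Fli1, Erg held in both libraries, with Ets1 above Erg by log2 ratios of 1.70 and 2.55. Lymphocytes also express Ets1, and the part of their RNA in the Ets1 values was not tested.

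Erg (chromosome 16, 95359169 to 95586593, minus strand) changed its leading transcript, from Erg-203 with 41.5% in replicate 1 and 14.3% in replicate 2 to Erg-202 with 36.2% and 45.7%. Their coding lengths of 1437 and 1365 nt differ by a coding exon that keeps the reading frame.
Erg exon 6 of 10 in Erg-203, chr16:95377301-95377372, minus strand, 72 nt: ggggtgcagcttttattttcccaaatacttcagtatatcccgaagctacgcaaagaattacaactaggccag
Summed over 5 Erg transcripts that span it, with 4.17 and 2.85 TPM, inclusion of this exon was 46.0% and 41.1%. Transcripts without an M21 model of equal length were left out, among them 1 with 5.57% and 10.99% of Erg TPM. Among the transcripts used, exon use stayed closer between the replicates than the shares of the leading transcripts did.

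The 3 SoxF genes were the part of the transcription factor group that differed most in balance. Sox17, an arterial and endocardial factor, was at 10.4 and 9.96 TPM. Sox7 was at 6.64 and 5.05. Sox18, which acts upstream of Prox1 in lymphatic development, was at 8.29 and 18.4 TPM from 1165 and 2706 counts, a 2.17-fold difference after centring. Sox18 was thus the middle gene of the trio in replicate 1 and the highest in replicate 2. The log2 ratio of Sox18 to Sox17 was -0.32 in replicate 1 and 0.87 in replicate 2. Sox18 and Sox7 each had a single transcript in use, so no change of effective length entered these values.

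Tal1 (ENSMUSG00000028717.8, chromosome 4, 115056426 to 115071755, plus strand) encodes a helix-loop-helix factor of blood cells, endothelium and endocardium. Its level was even, at 2.63 and 2.84 TPM, from 1052 and 901 counts. Its transcripts were not. Tal1-201 took 89.4% of TPM in replicate 1 and 1.07% in replicate 2, or 975 and 13.2 counts. Tal1-204 took 10.6% and 68.1%, and Tal1-203 took 0% and 30.8%. All 3 share a coding length of 987 nt, so the difference concerned their untranslated ends. The bases before the start sites of Tal1-201 and Tal1-203 are printed to show that the sites lie apart on the chromosome and differ in base composition, with 50.7% and 64.3% G and C in their windows. TTATCT, the reverse complement of the GATA-type motif AGATAA, is in capitals in the first.
Tal1-201 upstream, chr4:115056176-115056425, plus strand: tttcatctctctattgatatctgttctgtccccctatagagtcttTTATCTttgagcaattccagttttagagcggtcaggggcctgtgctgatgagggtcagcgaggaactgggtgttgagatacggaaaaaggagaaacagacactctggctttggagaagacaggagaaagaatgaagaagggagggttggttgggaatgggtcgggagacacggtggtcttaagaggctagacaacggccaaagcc
Tal1-203 upstream, chr4:115057561-115057810, plus strand: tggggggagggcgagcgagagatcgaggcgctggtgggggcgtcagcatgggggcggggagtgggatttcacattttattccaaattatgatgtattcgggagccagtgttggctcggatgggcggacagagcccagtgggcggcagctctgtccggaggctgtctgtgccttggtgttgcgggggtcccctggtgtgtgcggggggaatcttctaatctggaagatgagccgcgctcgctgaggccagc
Tal1-201 is also longer than the others, 4213 nt against 3703 and 2894, and the use of starts and of ends cannot be told apart from these estimates. Red cell precursors express Tal1 as well, and the summed TPM of the erythroid markers was 3113 in replicate 1 and 3726 in replicate 2. Their part in the Tal1 values was not tested.

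The 4 endocardial genes were all lower in replicate 2 by TPM, and summed to 53.2 and 35.5 TPM, or 44.3 ± 12.5. Most of the drop came from Plvap, the protein of endothelial diaphragms, at 25.9 and 13.5 TPM from 4723 and 2590 counts. As Emcn also marks veins and capillaries, the sum of the 4 genes cannot be read as endocardium alone. Nfatc1, the transcription factor of endocardium and valve formation, differed little, at 4.33 and 4.17 TPM. Of the 4 genes only Emcn changed direction by counts. Plvap overlaps Gtpbp3 on the opposite strand, which moved the other way, with 5.49 and 9.69 TPM. By comparison the 28 vascular genes summed to 590 and 602 TPM, or 596 ± 8.48, with 12 higher and 16 lower in replicate 2.

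Genes of an additional endocardial list lay mostly on the same side. The list was chosen with earlier results of these data known, so it is not an independent check. Npr3, Foxc1 and Cytl1, the highest of this list of 8, were at 9.11 and 7.2, at 8.70 and 7.12, and at 8.28 and 5.17 TPM. All 7 genes of that list with a mean of at least 1 TPM were lower in replicate 2. The remaining gene, Hapln1, was at 0.01 and 0.13 TPM. The median log2 difference of the 7 genes was -0.55, against 0 by construction for all genes tested. An additional lymphatic endothelial list had a median of -0.71 by TPM, so by TPM the lower side was not particular to endocardial genes. In that list the log2 differences of Reln and Itga9 were -1.02 and 0.57 by TPM, but 0.12 and -0.07 by counts. Its median by counts is not given. None of the 7 endocardial list genes, and none of the 4 endocardial members, reached a 2-fold difference.

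The lymphatic genes lay below the median level of the 34 genes and differed in direction. Among nuclear protein-coding genes Prox1 stood at percentile 75.6 and Lyve1 at percentile 74.9. Prox1 was at 8.26 and 6.11 TPM, and Lyve1, the hyaluronan receptor of lymphatic endothelium and some macrophages, was at 6.14 and 7.64. They summed to 14.4 and 13.8 TPM. Prox1 is also expressed by cardiomyocytes, whose markers had a median log2 difference of 0.04, so its level cannot be read as lymphatic endothelium alone. In the additional lymphatic list 6 of 7 genes were detected, and the median log2 difference by TPM was -0.71. Of these genes Itga9 was the highest, at 10.7 and 16.2 TPM. Its counts were even, at 5875 and 5880, while its effective length was 5187 and 3281 nt. Ccl21a was at 5.67 and 3.47, and Flt4, the VEGF-C receptor, was at 4.31 and 3.60. Foxc2 was at least 2-fold lower in replicate 2, at 4.27 and 1.76 TPM, and Mmrn1 was higher, at 0.62 and 2.08. Reln was also 2-fold lower by TPM, at 2.14 and 1.02, but not by counts, with 1046 and 1195 and a log2 difference of 0.12.

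Most of the 34 genes differed little between the replicates. The median absolute log2 difference was 0.26 for the endothelial genes and 0.40 for all genes tested. Of the 34 genes, 22 lay within 1.25-fold, compared with 42.3% of genes tested. These shares also depend on level, since the endothelial genes were expressed above the median gene. Plvap, at 0.516 times its replicate 1 level, and Adgrl4, at 1.96 times, lay just inside the 2-fold limit.

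**Figure D2:**
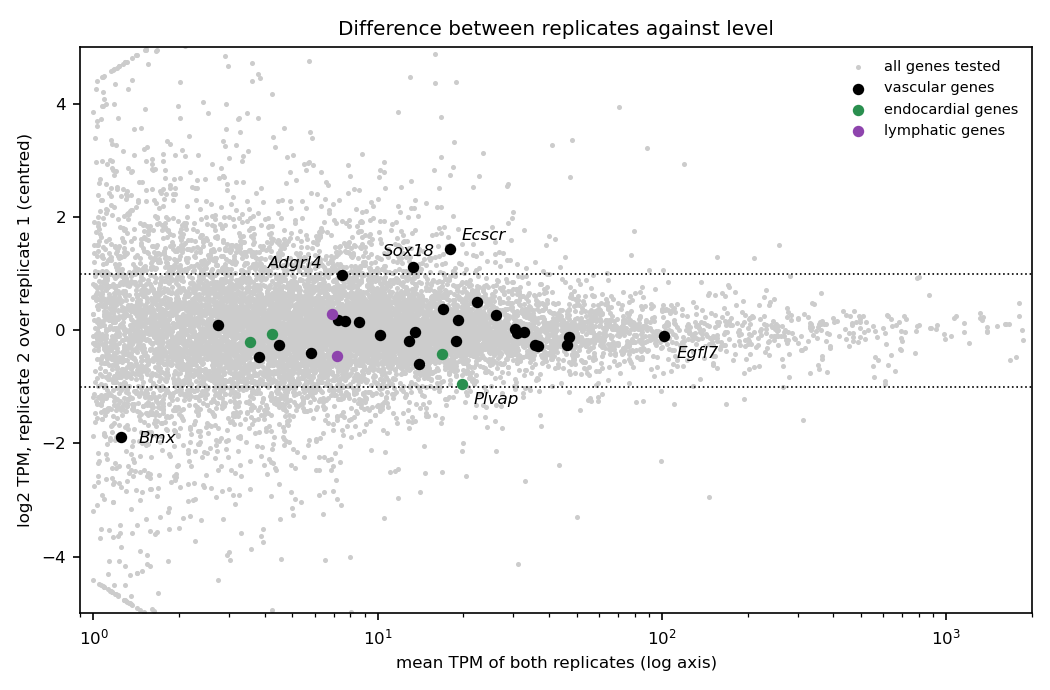
Log2 TPM of replicate 2 over replicate 1, centred on the median of genes with a mean of at least 1 TPM, against mean TPM on a log axis; grey points are all genes tested, coloured points the 34 endothelial genes, dotted lines mark 2-fold, and 126 of the 11594 genes lie outside the axes. Ecscr and Sox18 lie above the upper line and Bmx below the lower one.

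Counts not divided by length gave the same 3 genes, where 14.5% of all genes tested differed 2-fold. Their log2 differences in counts were 1.46 for Ecscr (95% counting interval 1.35 to 1.59), 1.14 for Sox18 (1.04 to 1.24) and -1.77 for Bmx (-2.10 to -1.54). For Plvap it was -0.94 (-1.01 to -0.87). The exact interval left out equality for 30 of the 34 genes, as it did for 84.8% of genes tested. It covers counting error alone, and the 4 genes whose interval held equality were Cdh5, Tie1, Nos3 and Nfatc1. For 4 genes, Adgrl4, Vwf, Emcn and Tal1, effective length differed by more than 1.25-fold between libraries, and for these 4 TPM and counts were farthest apart. The direction of the difference was not the same by TPM and by counts for 5 genes, these last 3 together with Egfl7 and Icam2.

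**Figure D3:**
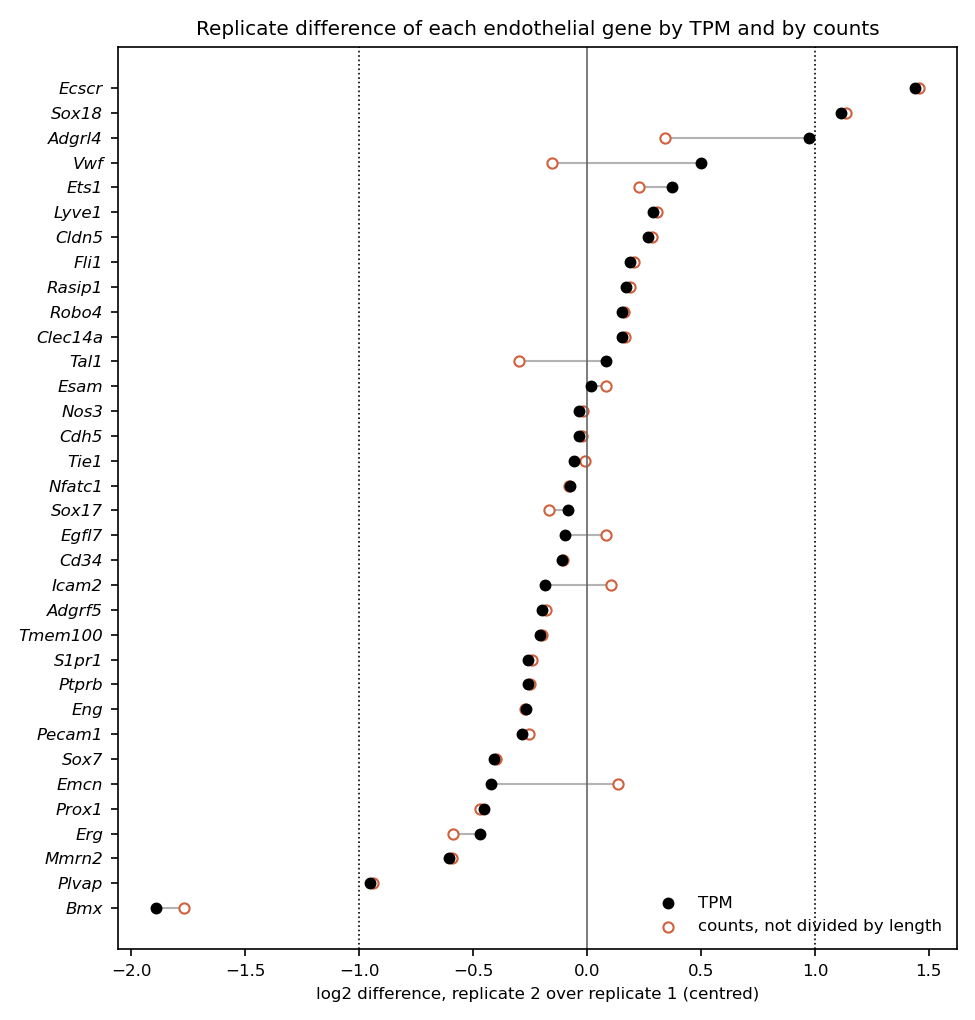
Centred log2 difference between replicates for each of the 34 genes by TPM (filled) and by counts not divided by length (open), sorted by the TPM difference; dotted lines mark 2-fold. The symbols coincide for most genes and separate for Adgrl4, Vwf, Tal1, Emcn and Icam2.

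Endothelial genes differed in the number of transcripts annotated and in use. A single transcript was in use for 15 genes, among them Cdh5, Cldn5, S1pr1, Mmrn2, Fli1, Sox18, Plvap and Lyve1. Of these 15 only Ecscr and Fli1 had more than 1 annotated transcript, so for the rest the annotation set the outcome. In 18 genes, these 15 included, 1 transcript held at least 80% of TPM in both libraries. Shares over all genes are not given for these counts. The leading transcript differed between replicates in 7 of the 21 genes with at least 2 annotated transcripts, namely Robo4, Emcn, Vwf, Bmx, Erg, Sox17 and Tal1. This share is near that over all 8346 such genes, 33.9%. When transcripts were ranked by counts, 5 of the 7 still changed, and Emcn and Sox17 did not. Noncoding models took part of the TPM of several genes in both replicates. Tie1-202, a processed transcript, held 41.8% and 35.7% of Tie1 TPM, and Sox17-205, a retained intron form, held 31.96% and 43.3% of Sox17 TPM.

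**Figure D4:**
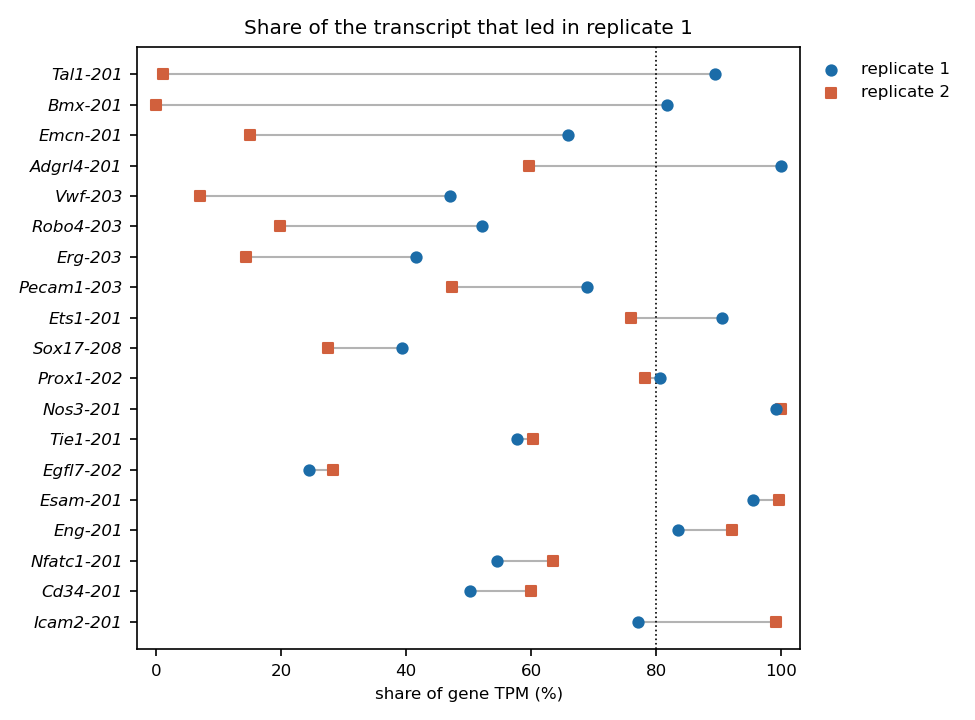
Share of gene TPM, in percent, of the transcript that led in replicate 1, for the 19 endothelial genes with several transcripts in use; circles are replicate 1, squares replicate 2, and the dotted line is the 80% used to call a major transcript. Tal1-201 and Bmx-201 go from over 80% to 1.07% and 0%.

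Promoter windows from RefSeq, 250 bases before to 50 after a start site, were at hand for 15 of the 34 genes, 22 windows in all. The ETS-type motif AGGAAG was present on either strand in 11 of 22 windows, or 50%, belonging to 10 genes, and in 35.4% of all 32851 windows of the same length. CGGAAG, another ETS-type motif, was present in 1 window, a Tie1 one, or 4.55%, against 16.9% of all. The Sox-type motif AACAAT was in 2 windows, Emcn and Erg, or 9.09%, against 10.7% of all. AGATAA was in 2 windows, Erg and Tal1, or 9.09%, against 11.2%. Median G and C content was 55.8% in these windows and 52.7% over all. Such matches describe letters in a window and no binding was measured.

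Pairs of genes with related functions were compared within each library, against 2.15, the log2 value that 95% of genes stayed under between replicates. Of 20 pairs, 2 exceeded it in both libraries. In 17 of the 20 pairs both values of one gene lay above both values of the other. Shares over all gene pairs are not given for these counts. Ptprb lay below its substrate Cdh5 by log2 ratios of -2.72 and -2.95, and Bmx lay below Pecam1 by -4.24 and -5.85. The number of pairs called was 0 to 6 under other limits, units or a larger pseudocount. Tie1 lay above Tek, which encodes its partner receptor Tie2, by 1.71 and 1.52, within the limit. Clec14a lay below its ligand Mmrn2 by -1.04 and -0.28. Adgrf5 lay above Adgrl4 by 1.44 and 0.27, and Prox1 above Erg by 0.89 and 0.91. Prox1 and Lyve1, Sox18 and Sox17, and Nfatc1 and Erg changed order between the libraries.

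Further endothelial genes, taken as lists, gave a similar picture of levels. Of 16 other pan-endothelial genes 15 were detected, led by Ramp2 at 66.0 and 41.7, Cd93 at 31.2 and 27.9 and Heg1 at 23.0 and 21.8 TPM. Among them Calcrl, the receptor partner of Ramp2, was over 2-fold higher in replicate 2 by TPM, at 8.43 and 20.7, but not by counts, with 3243 and 5637 and a log2 difference of 0.72. Ldb2 was over 2-fold lower, at 1.67 and 0.59 TPM. Of the 9 capillary genes, 4 were at least 2-fold higher in replicate 2, against 10.1% of all genes tested. These were Rgcc, Meox2, Timp4 and Car4, with 5.59 and 11.5, 2.31 and 7.03, 2.75 and 6.76, and 0.04 and 1.96 TPM. Car4 met the filter at a mean of 1 TPM only through replicate 2, with 2 and 162 counts, so its call was tied to the filter. Rgcc lay at the 2-fold limit, with a log2 difference of 1.00. The abundant capillary genes Fabp4, Cd36 and Gpihbp1, which handle fatty acids, were at 106 and 130, 73.8 and 96.7, and 51.5 and 66.9 TPM.

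Arterial genes were all detected, 9 of 9, with a median log2 difference of -0.23. The gap junction genes Gja5 and Gja4 were at 22.7 and 17.9 and at 11.7 and 10.1 TPM, and Unc5b was at 15.7 and 10.6. By counts Gja5 differed less, with 4772 and 4707 and a log2 difference of -0.10. Which cells of the whole heart these arterial list genes came from was not tested. Sema3g was over 2-fold higher in replicate 2, at 1.14 and 3.35. Venous genes were detected in 4 of 6 cases, with Ephb4 at 29.6 and 26.2, Vcam1 at 10.3 and 13.0 and Aplnr at 10.3 and 12.6 TPM. Smooth muscle and pericyte genes were less even, with a median log2 difference of 0.96. Of 9 genes, 4 were at least 2-fold higher in replicate 2, against 10.1% of all genes tested. Tagln was at 16.8 and 160 TPM, Myh11 at 1.01 and 25.0, Cnn1 at 8.14 and 49.0 and Kcnj8 at 3.93 and 11.7. The others stayed under 2-fold, among them Acta2 at 280 and 395, Abcc9 at 25.5 and 28.0 and Cspg4 at 14.1 and 15.8. Whether this RNA came from vessel walls or from other smooth muscle was not tested.

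**Figure D5:**
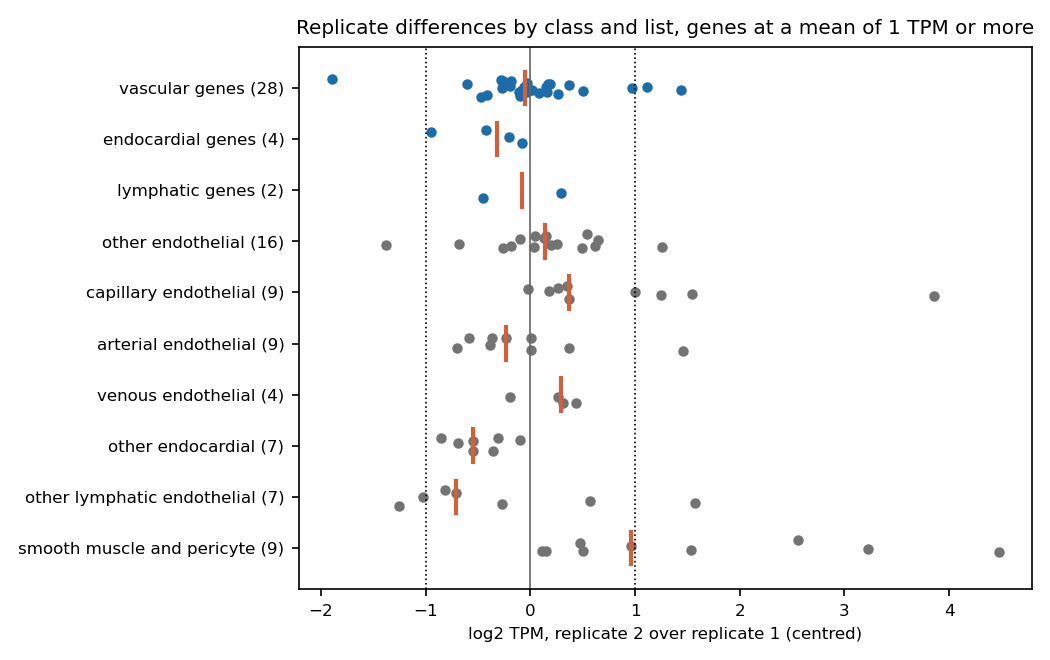
Centred log2 TPM difference, replicate 2 over replicate 1, of each gene with a mean of at least 1 TPM, by class of the 34 endothelial genes (blue) and by list of other vascular genes (grey), with the number of genes in brackets; bars are medians and dotted lines mark 2-fold. Endocardial genes lie left of 0 in both rows, as does the median of the other lymphatic list. The smooth muscle and pericyte median lies near 0.96.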

How the data were processed

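Total RNA of newborn mouse heart was measured in 1 group of 2 replicates. Per the labels the libraries were strand-specific and depleted of ribosomal RNA. The deposited notes name assembly mm10 and GENCODE M4; for the aligner, program versions and strand setting of the counting, the value is "not given in the sources used here". Expected counts, as deposited, are the authors' model estimates of fragments per gene or transcript, which need not be whole. The authors scaled the deposited TPM and FPKM values by transcript length and library. Each transcript's percent of its gene's TPM was also deposited. Gene and transcript identifiers and lengths were taken as deposited.

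Members and lists were chosen with earlier results of these data known. Symbols, coordinates, transcript names and exons came from GENCODE M21 on the same build, matched by identifier without version, and 42462 of 43346 genes matched. All 34 members were named. Other names were drawn from the 3 highest genes of each list, list genes at least 2-fold apart and genes of pairs. Not all of these were used. Cd3e, Gp9, Gp1ba, Abcc9, Cspg4, Hapln1, Gtpbp3, Mir126a and 1700066B19Rik were added after their values were seen, as were the exons printed. Exon inclusion was summed only over spanning transcripts of equal length in both GENCODE releases. Differences were log2 ratios of TPM plus 0.1, centred on genes with a mean of 1 TPM (shift 0.02). Detection meant 1 TPM in both replicates. Counting intervals were exact conditional binomial intervals at 95% and cover counting error alone. For TMM factors (R 4.3.3, edgeR 4.0.16), expected counts were rounded first. Identical counts occurred in 0.0949% of genes tested, so the replicates were separate libraries. Other work used Python 3.11.15 with scipy 1.17.1, pandas 2.3.3, numpy 2.4.6 and matplotlib 3.10.9. Calls of 2-fold differences and counting intervals were tested on simulated data. Alternatives covered thresholds, pseudocounts, filters, units, scaling and single replicates. Protein identity within the SoxF and ETS families was not analysed here.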

Additional observations from a re-analysis of the deposited data

How the results depend on the processing

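With 2 libraries and no contrast, only the spread between these pools could be described. The 3 genes at least 2-fold apart remained the same by counts, posterior mean TPM, a pseudocount of 1, no centring and TPM without noncoding transcripts, the last chosen after seeing the data. Without a filter Adgrl4 joined them, and with a filter at 5 TPM Bmx left. The number of pairs called was the least stable value. It went from 2 to 6 with counts not divided by length, 4 with a pseudocount of 1, 6 with a limit from genes at 10 TPM and 0 at the 99th percentile, and was 3 with either replicate left out: Ets1 and Erg were added from replicate 2 alone, and Lyve1 and Pecam1 from replicate 1 alone. Ptprb and Cdh5 were not among the 6 pairs called by counts, where its length is not taken into account. The median level of the 34 genes was 13.6 TPM, 13.4 by posterior means and 51.3 when TPM was rescaled to nuclear protein-coding genes. The same rescaling took the vascular, endocardial and lymphatic sums to 2255, 168 and 53.3. Of 232 recomputed differences of single genes, 225 moved by less than 0.40, the median absolute log2 difference of all genes tested. Sign changes occurred among these 225, as for Icam2, from -0.19 to 0.10 by counts. Of the rest, 1 passed the 2-fold limit and 6 moved by more than 0.40. Among these 6, Bmx went from -1.89 to -1.05 with a pseudocount of 1, where it was still past 2-fold, Adgrl4 went from 0.97 to 0.26 and Vwf from 0.50 to -0.11 without noncoding transcripts. No difference past 2-fold changed sign in these settings. No paired analysis was possible because there was only 1 group.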
